A study of Mus musculus with 9 samples.

Results

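The 46 genes described here encode non-collagen parts of the extracellular matrix and the enzymes that join them: 13 fibronectin, tenascin, thrombospondin and matricellular genes, 12 elastic fibre and microfibril genes, 8 small leucine-rich proteoglycan genes, 6 large proteoglycan and nidogen genes, and 7 genes of crosslinking and procollagen processing. They were chosen by gene symbol, with earlier results of these data known, and all 46 occur among the 23358 entries of the count table. RNA sequencing covered mesenchymal stem cells from adult C57BL/6 mouse marrow at passage 4 to 10, in 3 groups of 3 libraries. All cells received an siRNA in osteogenic medium, with 50 µg/ml ascorbic acid and 10 mM β-glycerophosphate, and were lysed on day 4. The siCTL group received a non-targeting siRNA. The GSK126 group received that siRNA together with 5 µM GSK126, an inhibitor of Ezh2, the enzyme that methylates lysine 27 of histone H3. The siBcat group received an siRNA against β-catenin, the transcriptional co-activator of Wnt signalling that also links cadherins to actin. A treatment field in the labels lists 5 µM GSK126 for the siBcat libraries as well, whereas their titles, source names and the series design give none, and the groups follow the titles. The series design calls the libraries of a group biological replicates, and no label says whether they came from separate animals or cultures, so p values measure the spread between these libraries.

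Matrix around stromal cells is a network of fibres and the proteins that arrange them. Fibronectin fibrils guide collagen deposition, fibrillin microfibrils scaffold elastin, small leucine-rich proteoglycans bind collagen fibrils and help set their diameter, and lysyl oxidases and transglutaminase 2 crosslink the fibres covalently. Matricellular proteins such as tenascin-C and the thrombospondins act mainly on cells and growth factors, and in bone the whole network is the scaffold that osteoblasts mineralise.

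Total counts per library ranged from 42324200 to 55898774. Levels are CPM, counts relative to the library total after TMM scaling, with means ± SD over n = 3 libraries. Ctnnb1, the gene of β-catenin, lay between 854 and 879 CPM in siCTL and between 19.1 and 19.3 CPM in siBcat, 44.9-fold lower. The 10 marrow stromal markers summed to 5150 to 5214 CPM in siCTL, 8845 to 9506 in GSK126 and 3923 to 3965 in siBcat, mostly Cxcl12, which gave 1.09 (adjusted p = 1.94e-08) in GSK126 and -0.65 (adjusted p = 5.58e-07) in siBcat. Of these 10, 3 rose and 2 fell in GSK126 and 2 rose and 3 fell in siBcat, Thy1 had 0 counts in every library, and Lepr and Nt5e were low, at 0.732 ± 0.253 and 1.30 ± 0.316 CPM in siCTL. The 8 osteoblast markers, mostly Col1a1, summed to 7058 to 10010, 9942 to 10740 and 7094 to 8041 CPM in siCTL, GSK126 and siBcat, with Bglap and Bglap2 too rare to be tested. Col1a1 and Sp7 were not called against siCTL, and the others went both ways. In GSK126 Alpl (0.54) and Ibsp (2.16), the latter tested only through its GSK126 counts, rose and Dmp1 (-0.51) fell. In siBcat Runx2 (-0.30) and Alpl (-0.29) fell and Dmp1 (0.30) rose. Of 6 adipocyte markers Lep had 0 counts, and the other 5 were higher in GSK126 than in siCTL, where 14.3% of all genes tested were higher. Cfd is among them only because its GSK126 counts passed the filter, so its rise is no separate support. In siBcat Pparg rose (0.18, adjusted p = 0.012), Adipoq (-1.60, adjusted p = 2.11e-05) and Fabp4 (-1.18, adjusted p = 5.36e-07) fell, and Plin1 and Cfd were not called. The adipocyte markers summed to 123 to 128 CPM in siCTL, 216 to 248.5 CPM in GSK126 and 95.98 to 100.1 CPM in siBcat. Chondrocyte markers summed to 35.7 to 47.3, 109.9 to 130.3 and 89.5 to 109 CPM in the same order, with Col2a1 as the one member that passed the test. Haematopoietic markers summed to 9.36 to 14.3 CPM over all libraries, with Ptprc and Emr1 at 0, and endothelial markers to 1.45 to 2.26 CPM. The part of these cell types in the results below was not tested, and in bulk RNA fewer cells of a type and less RNA per cell cannot be told apart.

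The expression of these matrix genes moved in both directions under each treatment. Tests were edgeR quasi-likelihood F-tests with Benjamini-Hochberg adjustment over 13240 genes, and a gene was counted as changed at an adjusted p below 0.05. Of the 46 matrix genes 43 had enough counts to be tested, Eln only through its GSK126 libraries, where it was highest. In siBcat against siCTL 30 of the 43 changed, 11 higher and 19 lower, where 35.2% of all genes tested changed, 17.7% higher and 17.5% lower. In GSK126 against siCTL 25 changed, 13 higher and 12 lower, against 25% of all genes, 14.3% higher and 10.7% lower. In the direct comparison of siBcat with GSK126 29 changed, 13 higher and 16 lower in siBcat, against 41.2% of all genes, 19.3% higher and 21.9% lower. That background split depends on the scaling: by library size alone 33.4% of all calls in the direct comparison were higher in siBcat, against 46.8% with TMM.

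The size of the changes also lay above that of the whole table. The median absolute log2 difference of the matrix genes was 0.48 in siBcat against siCTL, 0.32 in GSK126 against siCTL and 0.46 between siBcat and GSK126, where all genes tested gave 0.20, 0.17 and 0.22. Signed medians on the log2 scale, in the same order, were -0.14, -0.081 and -0.019 for the matrix genes and 0.0024, 0.0063 and -0.012 for all genes. The matrix genes thus lay furthest below all genes in siBcat against siCTL. A change of at least 2-fold was reached in siBcat by 2 higher and 8 lower matrix genes, against 4.55% of all genes. In GSK126 it was reached by 5 higher and 1 lower, against 2.71%, and in the direct comparison by 4 higher and 12 lower, against 6.02%. The 3 siBcat libraries lay wholly above the 3 siCTL libraries for 11 matrix genes and wholly below for 23, where 55.2% of all genes showed no overlap in either direction. For GSK126 these numbers were 14 above and 15 below, against 42.1%, and in the direct comparison 16 and 15, against 52.5%. Both treatments were set against the same siCTL libraries, so the fold changes of a gene in siBcat and in GSK126 are not independent of each other.

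**Figure D1:**
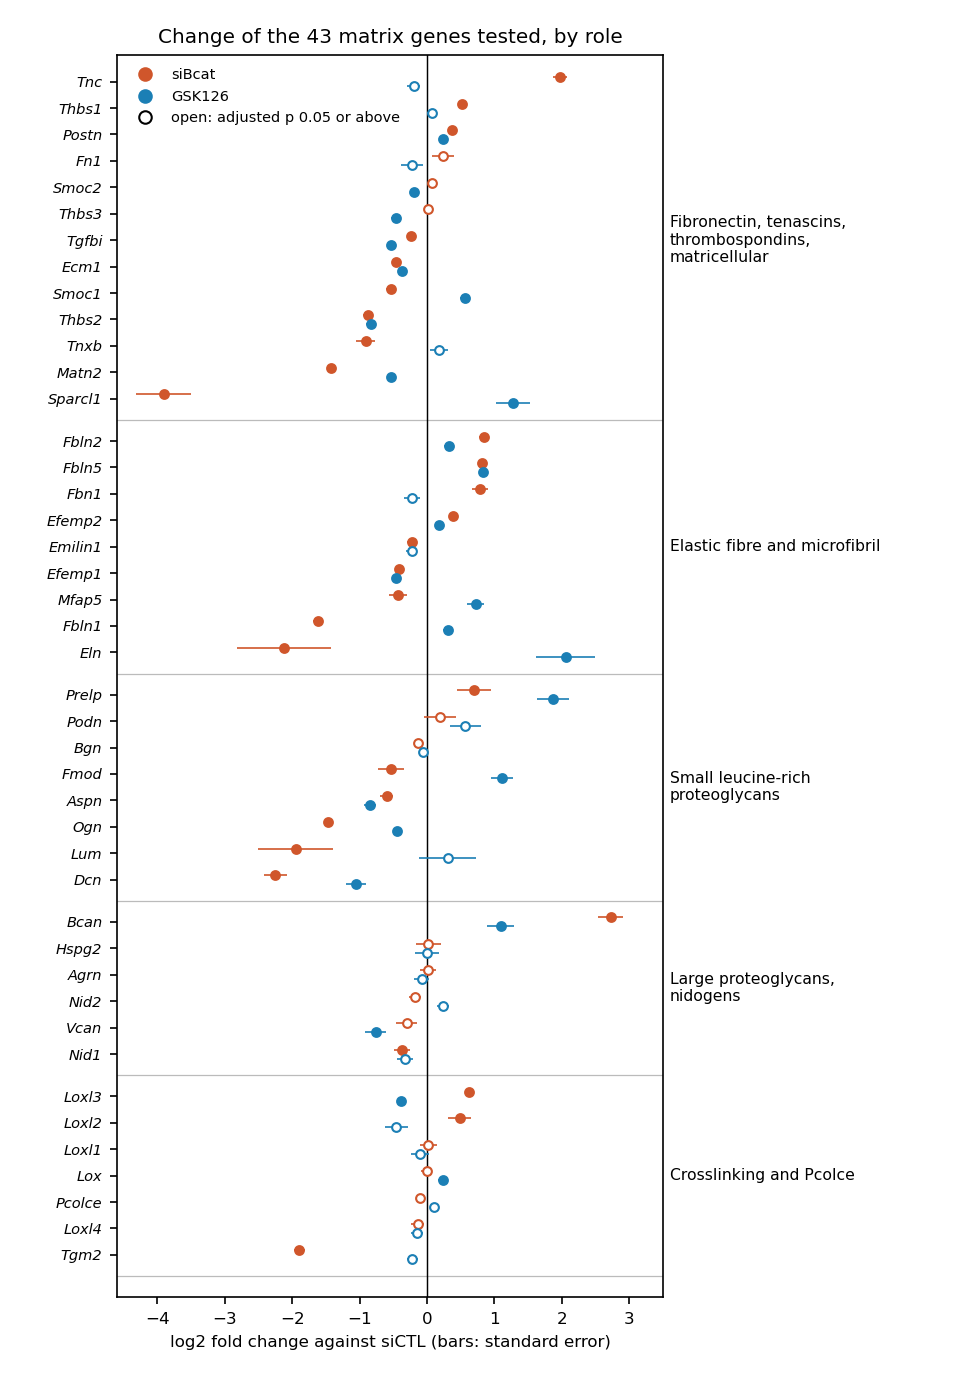
Log2 fold change against siCTL (x axis, bars are the standard error) of the 43 matrix genes tested, in 5 role groups ordered by the siBcat value, for siBcat (orange) and GSK126 (blue), with open circles at an adjusted p of 0.05 or above. Sparcl1, Eln, Fbln1 and Fmod lie left of 0 in siBcat and right of 0 in GSK126, whereas Tnc is far right in siBcat alone and Bcan is right of 0 in both.

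On a per-length scale, as CPM per kilobase of deposited gene length, the matrix genes spanned a wide range. In siCTL biglycan (Bgn) was highest at 2970 CPM per kilobase, followed by fibronectin (Fn1) at 1778, lysyl oxidase (Lox) at 1721, thrombospondin-1 (Thbs1) at 1142 and thrombospondin-2 (Thbs2) at 989. Those 5 genes made up 73.8% of the summed per-kilobase level of all 46. In siCTL 15 genes reached 100 CPM per kilobase, 29 reached 10 and 35 reached 1. By plain counts the 46 genes took 5.15 to 5.19% of all counts in siCTL, 5.14 to 5.43% in siBcat and 4.10 to 5.21% in GSK126, where replicate 3 gave the lowest share. Bgn, Fn1, Lox and Thbs1 stayed the 4 highest genes per kilobase in all 3 groups. Tnc moved from rank 23 in siCTL to rank 10 in siBcat.

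**Figure D2:**
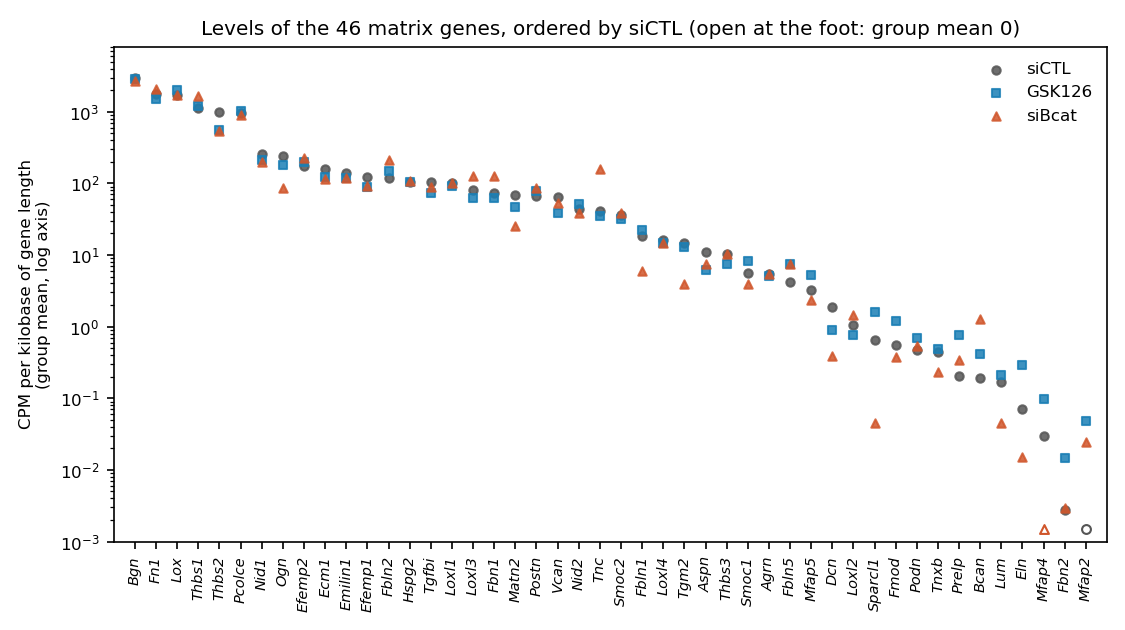
Group mean level in CPM per kilobase of gene length (log y axis) of the 46 matrix genes, ordered by siCTL (grey circles), with GSK126 (blue squares) and siBcat (orange triangles). The 3 groups nearly coincide for Bgn, Hspg2 and Loxl1, while Tnc at 159.8 and Ogn at 87.4 CPM per kilobase in siBcat stand off their siCTL values of 40.7 and 242.

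The 250 bases upstream of the start site are shown for Tnc, Bcan, Fbln1 and Ogn, because these were the genes with an entry in the RefSeq promoter table (GRCm38.p6) that changed most in siBcat. Letters run 5′ to 3′ on the gene's strand, and capitals mark matches to the motifs searched on both strands: CTTTGAT (the TCF/LEF core), GGAATG (TEAD), TGANTCA (AP-1) and TATAAA. The windows lie at chr4:64047016-64047265, minus strand, at chr3:88000357-88000606, minus strand, at chr15:85205758-85206007, plus strand, and at chr13:49607765-49608014, plus strand.
Tnc: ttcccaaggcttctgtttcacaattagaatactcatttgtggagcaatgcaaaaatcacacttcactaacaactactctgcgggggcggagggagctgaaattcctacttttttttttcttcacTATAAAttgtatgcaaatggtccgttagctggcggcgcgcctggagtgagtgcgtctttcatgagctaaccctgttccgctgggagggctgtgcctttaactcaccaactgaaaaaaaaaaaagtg
Bcan: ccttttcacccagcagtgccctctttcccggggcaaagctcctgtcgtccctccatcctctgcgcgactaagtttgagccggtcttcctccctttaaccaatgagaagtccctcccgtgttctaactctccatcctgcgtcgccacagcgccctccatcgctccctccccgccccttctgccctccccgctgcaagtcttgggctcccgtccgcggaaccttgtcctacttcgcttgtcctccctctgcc
Fbln1: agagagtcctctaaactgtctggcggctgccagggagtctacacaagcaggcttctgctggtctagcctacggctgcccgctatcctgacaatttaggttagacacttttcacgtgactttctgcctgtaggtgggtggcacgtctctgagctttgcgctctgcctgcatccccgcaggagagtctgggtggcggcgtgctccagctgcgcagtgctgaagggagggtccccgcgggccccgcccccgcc
Ogn: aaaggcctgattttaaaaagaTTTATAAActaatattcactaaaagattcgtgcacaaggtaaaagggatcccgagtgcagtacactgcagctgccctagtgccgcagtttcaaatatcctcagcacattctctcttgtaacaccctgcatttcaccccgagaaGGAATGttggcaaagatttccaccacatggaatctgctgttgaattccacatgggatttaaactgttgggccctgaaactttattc
The Tnc window held 1 match, TATAAA starting 126 bases upstream of the start site. The Ogn window held GGAATG at 86 bases and 2 overlapping matches to TATAAA, 1 on each strand, at 227 and 229 bases. No match was found in the Bcan and Fbln1 windows, whose letters hold 16 and 14 CpG dinucleotides against 8 in Tnc and 4 in Ogn. All windows of the table had a median of 6 CpG dinucleotides, with quartiles of 2 and 16. Of the 46 matrix genes 28 had an entry, in 37 windows, and 18 had none: Fn1, Mfap4, Thbs1, Loxl1, Smoc2, Dcn, Tgm2, Matn2, Lum, Nid2, Smoc1, Sparcl1, Loxl2, Fbn2, Mfap5, Eln, Loxl3 and Lox. CTTTGAT matched in 0 of the 37 windows and in 3.21% of the 32851 windows of the table. TATAAA matched in 7 windows, of Aspn, Ecm1, Ogn, Postn, Thbs2 and Tnc, and in 12.4% of all windows. GGAATG matched in 3, of Mfap2, Nid1 and Ogn, against 12.6%, and TGANTCA in 3, of Ecm1, Efemp1 and Tnxb, against 6.75%. A match is a run of letters and was not tested as a binding site.

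Among the 13 fibronectin, tenascin, thrombospondin and matricellular genes, 3 rose and 7 fell in siBcat, with a median log2 difference of -0.24. In GSK126 3 rose and 6 fell, with a median of -0.20. These shares of 76.9% and 69.2% stand beside 35.2% and 25% of all genes. Tnc was the gene of this group that rose most in siBcat, and Sparcl1 the one that fell most. Tnc (chr4:63959785-64047015) encodes tenascin-C, a hexameric glycoprotein of developing and healing tissue that modulates cell adhesion. It stood at 299.8, 277 and 290.1 CPM in the siCTL libraries, 276, 276 and 203 in GSK126 and 1181, 1074 and 1149 in siBcat. Every siBcat library was above every other library, and GSK126 replicate 3 was the lowest of all. The log2 fold change was 1.97 (SE 0.10, adjusted p = 1.22e-07) in siBcat, 3.93-fold higher, and -0.20 (SE 0.10, adjusted p = 0.172) in GSK126. Between siBcat and GSK126 it was 2.17 (SE 0.10, adjusted p = 3.63e-08). Tnxb (chr17:34670535-34719815) encodes tenascin-X, a collagen-associated relative, and stood at 4.12, 4.41 and 3.99 CPM in the siCTL libraries, 5.26, 4.50 and 4.39 in GSK126 and 2.53, 1.90 and 2.23 in siBcat. The siBcat libraries were lowest, and siCTL and GSK126 overlapped. Tnxb fell in siBcat, with a log2 fold change of -0.91 (SE 0.14, adjusted p = 0.000284), and gave 0.18 (adjusted p = 0.339) in GSK126 and -1.09 (SE 0.14, adjusted p = 4.44e-05) between the treatments.

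Fibronectin itself, the adhesive glycoprotein that cells assemble into fibrils, did not pass the test in either treatment. Fn1 (chr1:71585523-71653171) stood at 15110, 14670 and 14550 CPM in the siCTL libraries, 14170, 14890 and 8826 in GSK126 and 18090, 16420 and 17640 in siBcat. Every siBcat library was above every siCTL library, and GSK126 replicate 3 lay far below the other GSK126 libraries. The log2 fold change was 0.23 (SE 0.16, adjusted p = 0.297) in siBcat and -0.23 (adjusted p = 0.337) in GSK126. Without GSK126 replicate 3 the siBcat difference kept its size and passed (0.23, adjusted p = 8.14e-06), as it did in a fit of only the siCTL and siBcat libraries (0.23, adjusted p = 8.63e-06). Between siBcat and GSK126 the value was 0.46 (adjusted p = 0.0454), which was lost in 8 of 21 alternatives, among them those without siCTL replicate 1, 2 or 3, GSK126 replicate 1, siBcat replicate 1, 2 or 3 (adjusted p 0.05 to 0.1). Without GSK126 replicate 3 that direct difference was smaller but called (0.26, adjusted p = 8.8e-06).

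The thrombospondins, glycoproteins that bind cells, growth factors and other matrix proteins, parted from one another. Thbs1, the activator of latent TGF-beta, rose in siBcat from 6626 ± 146 to 9529 ± 364 CPM, a log2 fold change of 0.52 (adjusted p = 0.000109). In GSK126 it gave 0.075 (adjusted p = 0.472), and 0.16, adjusted p = 0.00115 without GSK126 replicate 3. Thbs2, a relative known for restraining blood vessel growth, fell from 5857 ± 105 CPM to 3192 ± 102 in siBcat and 3302 ± 379.6 in GSK126. Its log2 fold changes were -0.88 (adjusted p = 1.68e-06) and -0.83 (adjusted p = 6.09e-06). Per kilobase of gene length, Thbs1 over Thbs2 was 1.19, 1.10 and 1.17 in the siCTL libraries, 2.16, 2.14 and 2.18 under GSK126 and 3.07, 3.03 and 3.04 with siBcat. The ratios of the 3 groups did not overlap, and the exact two-sided permutation p of each treatment against siCTL was 0.1, the smallest that 3 against 3 libraries allow.

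Matn2 (chr15:34306681-34436240) encodes matrilin-2, an adaptor of filamentous networks, and stood at 242, 244 and 241 CPM in the siCTL libraries, 167, 168 and 165 in GSK126 and 93.1, 85.9 and 91.8 in siBcat. The 3 groups were fully separate, siBcat lowest. Its log2 fold change was -1.43 (SE 0.049, adjusted p = 1.4e-09) in siBcat, -0.54 (SE 0.048, adjusted p = 6.09e-06) in GSK126 and -0.89 (SE 0.048, adjusted p = 2.71e-08) between the treatments. Sparcl1 (chr5:104079109-104114088), a relative of osteonectin, stood at 2.17, 1.81 and 2.12 CPM in the siCTL libraries, 5.48, 4.87 and 4.42 in GSK126 and 0.244, 0 and 0.175 in siBcat. The raw counts in siBcat were 10, 0 and 8, all even as in the whole table. If the even counts stand for both ends of each fragment, a count of 0 allows up to 3 fragments, or 6 counts, which is 0.142 CPM in the library with the fewest counts and less in the others. Groups were again fully separate, with GSK126 highest and siBcat lowest. Sparcl1 fell in siBcat by 3.91 on the log2 scale (SE 0.41, adjusted p = 1.51e-05), rose in GSK126 by 1.28 (SE 0.25, adjusted p = 0.00279), and differed between the treatments by -5.19 (SE 0.38, adjusted p = 4.49e-07). Without siBcat replicate 2, the library with no count, the log2 fold change was -3.28, and without siBcat replicate 1 it was -4.56. Markers of glia and neurons, cells known to express Sparcl1 and Bcan, were 10 genes. They summed to 3.97 to 4.12 CPM in siCTL, 4.66 to 5.65 in GSK126 and 3.41 to 4.17 in siBcat. Sox10, Aqp4 and Olig2 had 0 counts in all libraries. Of the 5 tested, Tubb3 rose in siBcat (1.15, adjusted p = 0.0139) and S100b fell (-0.80, adjusted p = 0.0202). The others tested were not called in siBcat, and none was called in GSK126.

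Smoc1 (chr12:81026808-81186414), which encodes a calcium-binding SPARC relative that antagonises BMP signalling, stood at 19.7, 19.2 and 20.3 CPM in the siCTL libraries, 29.5, 28.7 and 29.6 in GSK126 and 12.7, 13.03 and 15.1 in siBcat. No library of a group reached into another group. The log2 fold change was -0.54 (SE 0.075, adjusted p = 0.000132) in siBcat, 0.57 (SE 0.073, adjusted p = 0.00012) in GSK126 and -1.10 (SE 0.074, adjusted p = 1.68e-07) between the treatments. Smoc2, its paralogue, gave 0.067 (adjusted p = 0.382) in siBcat and -0.20 (adjusted p = 0.0207) in GSK126, and the latter call was lost in 4 of 21 alternatives, among them those without siCTL replicate 2 or 3, GSK126 replicate 1 (adjusted p 0.0564 to 0.0713). Tgfbi, which encodes an adhesion protein induced by TGF-beta, fell in both, at -0.24 (adjusted p = 0.00293) in siBcat and -0.54 (adjusted p = 1.07e-05) in GSK126. Ecm1, extracellular matrix protein 1, also fell in both, at -0.46 (adjusted p = 5.49e-05) and -0.36 (adjusted p = 0.000644). Thbs3 gave 0.021 (adjusted p = 0.836) in siBcat and fell in GSK126 at -0.46 (adjusted p = 0.000293). Postn, which encodes periostin of bone surfaces, rose from 219.9 ± 12.7 CPM to 285 ± 10.9 in siBcat and 258 ± 14.5 in GSK126. The Postn values were 0.37 (adjusted p = 0.000372) and 0.23 (adjusted p = 0.0132), and the GSK126 call was lost in 2 of 21 alternatives, those without siCTL replicate 2, GSK126 replicate 1 (adjusted p 0.0555 to 0.0902).

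**Figure D3:**
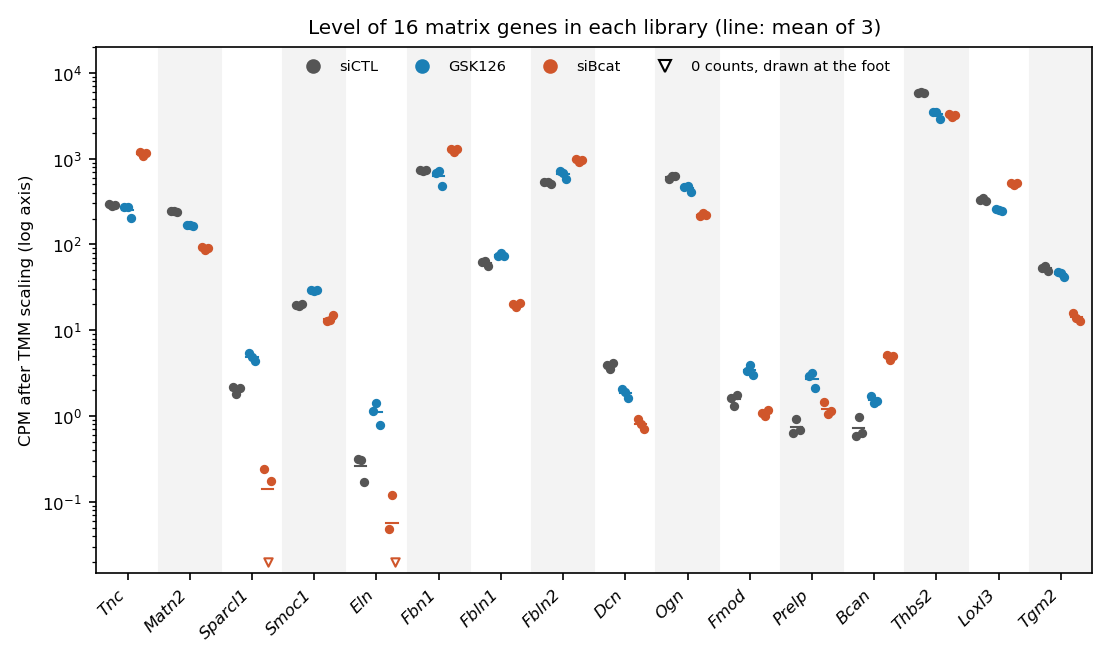
CPM after TMM scaling (log y axis) of 16 matrix genes in each of the 9 libraries, siCTL in grey, GSK126 in blue and siBcat in orange, with a line at the mean of 3 and open triangles for libraries with 0 counts. For Sparcl1, Smoc1, Eln, Fbln1 and Fmod the order from top to bottom is GSK126, siCTL, siBcat, for Tnc and Fbn1 siBcat alone is above siCTL, and for Tgm2 the siBcat libraries at 12.8 to 15.7 CPM lie below all others.

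Elastic fibres form when elastin is laid onto fibrillin microfibrils with the help of fibulins. Of the 12 genes of this group 9 were tested, and all 9 changed in siBcat, 4 higher and 5 lower, with a median log2 difference of -0.22. In GSK126 6 rose and 1 fell, with a median of 0.31. Of the 9 tested, 100% and 77.8% were thus called in siBcat and GSK126, beside 35.2% and 25% of all genes. These shares include Eln, which passed the count filter only through GSK126, the group where it was highest. In a fit of only siCTL and siBcat it had too few counts to be tested. They also include Emilin1, whose siBcat call was lost in 12 of 21 alternatives. Eln (chr5:134702596-134747254), the gene of tropoelastin, was close to silent, with 14, 14 and 8 counts in the siCTL libraries, 64, 62 and 40 in GSK126 and 2, 6 and 0 in siBcat. The groups did not overlap, GSK126 being highest and siBcat lowest. The log2 fold change was -2.12 (SE 0.69, adjusted p = 0.0299) in siBcat, 2.05 (SE 0.44, adjusted p = 0.00448) in GSK126 and -4.18 (SE 0.57, adjusted p = 7.44e-05) between the treatments. The siBcat call was lost in 4 of 19 alternatives, those without siCTL replicate 1 or 2, siBcat replicate 1 or 3 (adjusted p 0.0826 to 0.0895), and without siBcat replicate 2 the value was -3.37. Fbn1 (chr2:125300594-125506438), the gene of fibrillin-1, the main microfibril protein, stood at 741, 709.5 and 731 CPM in the siCTL libraries, 675, 711 and 477 in GSK126 and 1282, 1185 and 1292 in siBcat. It rose in siBcat, whose libraries were above all others, while GSK126 overlapped siCTL. Its values were 0.78 (SE 0.12, adjusted p = 0.000722) in siBcat, -0.23 (adjusted p = 0.201) in GSK126 and 1.01 (SE 0.12, adjusted p = 0.000105) between the treatments.

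Fbln1 (chr15:85206008-85286294), the gene of fibulin-1, stood at 61.7, 64.9 and 56.4 CPM in the siCTL libraries, 74.0, 79.2 and 73.1 in GSK126 and 20.1, 18.6 and 20.7 in siBcat. GSK126 was highest and siBcat lowest, with no overlap. Fbln1 fell 3.09-fold in siBcat, a log2 fold change of -1.63 (SE 0.070, adjusted p = 4.74e-09), and rose in GSK126 at 0.31 (SE 0.066, adjusted p = 0.00507). Between the treatments the difference was -1.93 (SE 0.070, adjusted p = 9.37e-10). Fbln2 and Fbln5, the genes of fibulin-2 and fibulin-5, rose in both. Fbln2 went from 528 ± 21.2 CPM to 951 ± 41.8 in siBcat (0.85, adjusted p = 2.09e-06) and 660.3 ± 72.3 in GSK126 (0.32, adjusted p = 0.00629). Fbln5, needed for elastic fibre assembly, went from 24.7 ± 2.16 to 43.5 ± 1.54 CPM in siBcat (0.82, adjusted p = 1.43e-06) and 44.1 ± 0.626 in GSK126 (0.84, adjusted p = 2.87e-06). Per kilobase, Fbln2 over Fbln1 was 6.58, 6.23 and 6.69 in the siCTL libraries, 7.33, 6.41 and 5.97 under GSK126 and 37.0, 36.6 and 34.7 with siBcat. The siBcat ratios stood apart from the rest (exact two-sided permutation p = 0.1, the smallest possible with 3 libraries each), and the GSK126 ratios overlapped siCTL (exact p = 1.0). Fbln5 over Fbln1 went from 0.234 ± 0.0292 in siCTL to 0.337 ± 0.0098 in GSK126 and 1.27 ± 0.110 in siBcat, so that in siBcat alone Fbln5 had the higher per-kilobase level.

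Mfap5 (chr6:122513676-122529287), which encodes a microfibril-associated glycoprotein, stood at 4.30, 4.63 and 4.58 CPM in the siCTL libraries, 6.64, 7.03 and 8.58 in GSK126 and 3.26, 3.76 and 2.98 in siBcat. Groups did not overlap, GSK126 being highest. Its log2 fold change was -0.43 (SE 0.14, adjusted p = 0.0248) in siBcat, 0.72 (SE 0.13, adjusted p = 0.0013) in GSK126 and -1.15 (SE 0.13, adjusted p = 1.77e-05) between the treatments. The siBcat call was lost in 4 of 21 alternatives, those without siCTL replicate 2 or 3, siBcat replicate 1 or 3 (adjusted p 0.0625 to 0.0992). Efemp2 (chr19:5474690-5481854), the gene of fibulin-4, which brings lysyl oxidase to elastin, had the highest level per kilobase of the elastic group and stood at 326, 328 and 312 CPM in the siCTL libraries, 357, 346 and 384 in GSK126 and 428, 407 and 424 in siBcat. The siBcat libraries lay above those of GSK126, and these above siCTL. It rose in siBcat at 0.38 (adjusted p = 0.000102) and in GSK126 at 0.17 (adjusted p = 0.0301), with 0.21 (adjusted p = 0.00543) between the treatments. The GSK126 call was lost in 7 of 21 alternatives, among them those without siCTL replicate 1, 2 or 3, GSK126 replicate 1, siBcat replicate 1 or 3 (adjusted p 0.0551 to 0.104). The direct difference was lost when libraries were scaled by size alone (adjusted p = 0.0596). Efemp1, the gene of fibulin-3, fell in both, at -0.42 (adjusted p = 2.15e-05) and -0.46 (adjusted p = 1.82e-05). Per kilobase, Efemp2 over Efemp1 thus went from 1.43 ± 0.0659 in siCTL to 2.50 ± 0.0983 in siBcat and 2.22 ± 0.172 in GSK126 (exact two-sided permutation p = 0.1 for each). Emilin1, a microfibril-associated protein, had siCTL libraries at 512, 512 and 401 CPM that overlapped both treatments. Its siBcat value was -0.22 (adjusted p = 0.0488), a call that was lost in 12 of 21 alternatives, among them those without siCTL replicate 1 or 2, GSK126 replicate 1, 2 or 3, siBcat replicate 1, 2 or 3 (adjusted p 0.0526 to 0.183). In GSK126 Emilin1 gave -0.23 (adjusted p = 0.0588), and -0.34, adjusted p = 0.00143 without siCTL replicate 3. That GSK126 value passed in 5 of 21 alternatives, among them the DESeq2 Wald test (adjusted p = 0.0294).

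The other 3 genes of the elastic group were too rare to be tested. Fbn2, the gene of fibrillin-2, had 2, 0 and 2 counts in the siCTL libraries, 4, 12 and 6 in GSK126 and 2, 0 and 2 in siBcat. Mfap2 had 0, 0 and 0 counts in the siCTL libraries, 4, 4 and 0 in GSK126 and 0, 2 and 2 in siBcat. Mfap4 had 4, 0 and 2 counts in the siCTL libraries, 8, 8 and 6 in GSK126 and 0, 0 and 0 in siBcat. No fold is given for these untested genes, whose highest count was the 12 of Fbn2 in GSK126 replicate 2.

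Small leucine-rich proteoglycans coat collagen fibrils. Of the 8 genes 1 rose and 5 fell in siBcat, with a median log2 difference of -0.57. In GSK126 2 rose and 3 fell, with a median of 0.12. The shares of 75% and 62.5% stand beside 35.2% and 25% of all genes. Biglycan, the most abundant, gave no call. Bgn (chrX:73483635-73495936) stood at 6919, 7058 and 7309 CPM in the siCTL libraries, 7098, 7053 and 6294 in GSK126 and 6519, 6184 and 6665 in siBcat. The siBcat libraries were below siCTL and overlapped GSK126. Its values were -0.14 (SE 0.059, adjusted p = 0.093) in siBcat and -0.058 (adjusted p = 0.501) in GSK126. The siBcat difference was called in 4 of 21 alternatives, among them that without GSK126 replicate 3 (-0.14, adjusted p = 0.00102). Decorin, its close relative, was rare in these cells. Dcn (chr10:97479500-97518162) stood at 3.89, 3.53 and 4.16 CPM in the siCTL libraries, 2.05, 1.88 and 1.63 in GSK126 and 0.925, 0.810 and 0.700 in siBcat. The 3 groups were separate, siBcat lowest. Dcn fell 4.76-fold in siBcat, a log2 fold change of -2.25 (SE 0.17, adjusted p = 8.09e-07), and 2.08-fold in GSK126, -1.06 (SE 0.15, adjusted p = 0.000323). Between the treatments the difference was -1.19 (SE 0.18, adjusted p = 0.000186).

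Ogn (chr13:49608071-49624500), which encodes osteoglycin, a proteoglycan found in bone matrix, stood at 582, 633 and 632 CPM in the siCTL libraries, 466, 479.7 and 413 in GSK126 and 215, 229.6 and 221 in siBcat. The groups were separate in the order siCTL, GSK126, siBcat. Ogn fell in siBcat at -1.47 (SE 0.063, adjusted p = 4.74e-09) and in GSK126 at -0.44 (SE 0.062, adjusted p = 0.000241), and the treatments differed by -1.03 (SE 0.063, adjusted p = 6.9e-08). Aspn, the gene of asporin, also fell in both, from 26.2 ± 2.37 CPM to 17.3 ± 0.884 in siBcat and 14.6 ± 1.72 in GSK126, at -0.60 (adjusted p = 0.000356) and -0.85 (adjusted p = 4.09e-05). Podn, the gene of podocan, gave 0.19 (adjusted p = 0.568) and 0.57 (adjusted p = 0.0861). Lum (chr10:97565501-97572703), the gene of lumican, had 18, 12 and 18 counts in the siCTL libraries, 28, 20 and 18 in GSK126 and 8, 2 and 2 in siBcat. Its siBcat libraries were lowest, and GSK126 overlapped siCTL. The Lum log2 fold change was -1.95 (SE 0.55, adjusted p = 0.0154) in siBcat, 0.31 (adjusted p = 0.63) in GSK126 and -2.26 (SE 0.53, adjusted p = 0.00442) between the treatments. The siBcat call was lost in 3 of 19 alternatives, those without siCTL replicate 1, siBcat replicate 2 or 3 (adjusted p 0.0504 to 0.072), and without siBcat replicate 1 the value was -2.996. The direct difference was -3.29 without siBcat replicate 1.

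Fmod and Prelp rose in GSK126 and parted in siBcat. Fmod (chr1:134037515-134048277), the gene of fibromodulin, a regulator of collagen fibril formation, stood at 1.63, 1.32 and 1.78 CPM in the siCTL libraries, 3.32, 3.91 and 3.03 in GSK126 and 1.07, 1.01 and 1.18 in siBcat. GSK126 libraries were highest and siBcat lowest, with no overlap. Its log2 fold change was -0.54 (SE 0.19, adjusted p = 0.0417) in siBcat, 1.11 (SE 0.17, adjusted p = 0.000424) in GSK126 and -1.65 (SE 0.18, adjusted p = 1.01e-05) between the treatments. Prelp (chr1:133910304-133921401), which encodes a proteoglycan that anchors basement membranes to connective tissue, stood at 0.634, 0.926 and 0.679 CPM in the siCTL libraries, 2.93, 3.17 and 2.10 in GSK126 and 1.46, 1.05 and 1.14 in siBcat. GSK126 libraries were again highest, with siBcat next and siCTL lowest. Prelp gave 0.70 (SE 0.25, adjusted p = 0.0463) in siBcat, 1.87 (SE 0.23, adjusted p = 9.5e-05) in GSK126 and -1.17 (SE 0.22, adjusted p = 0.000906) between the treatments. The siBcat calls of these 2 rare genes were weak. That of Fmod was lost in 10 of 21 alternatives, among them those without siCTL replicate 1 or 3, GSK126 replicate 1, siBcat replicate 1, 2 or 3 (adjusted p 0.0573 to 0.138). That of Prelp was lost in 8 of 21 alternatives, among them those without siCTL replicate 1 or 3, GSK126 replicate 1, siBcat replicate 1, 2 or 3 (adjusted p 0.0561 to 0.166). All counts in the table are even, as when both ends of a fragment are counted, and with every count halved the siBcat value of Fmod had an adjusted p of 0.0525 and that of Prelp 0.064.

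Fmod and Prelp are neighbours on chromosome 1, with no other entry of the table in the 116114 bases between them. Their upstream windows are printed because the pair rose together in GSK126 and went opposite ways in siBcat. They lie at chr1:134037004-134037253, plus strand, and at chr1:133921402-133921651, minus strand.
Fmod: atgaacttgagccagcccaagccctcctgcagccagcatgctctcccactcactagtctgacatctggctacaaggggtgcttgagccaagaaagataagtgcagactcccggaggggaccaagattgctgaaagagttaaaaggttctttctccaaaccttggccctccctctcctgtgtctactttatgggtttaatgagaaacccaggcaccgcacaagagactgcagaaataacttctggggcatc
Prelp: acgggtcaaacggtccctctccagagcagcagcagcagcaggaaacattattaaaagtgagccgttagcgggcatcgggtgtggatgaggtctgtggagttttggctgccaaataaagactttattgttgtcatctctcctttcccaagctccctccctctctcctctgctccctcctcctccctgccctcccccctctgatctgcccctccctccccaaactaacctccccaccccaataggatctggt
Neither window held a match to the 4 motifs, and they held 2 and 5 CpG dinucleotides. Other leucine-rich proteoglycan genes also lie side by side. On chromosome 13 Ecm2, Aspn, Omd and Ogn follow each other with no other entry between them and gaps of 11654, 15185 and 15462 bases. Ecm2 and Omd, relatives outside the 46 genes, were named for this position after their values were seen. Omd, the gene of osteomodulin, stood at 4.39, 4.50 and 4.97 CPM in the siCTL libraries, 4.28, 3.35 and 4.27 in GSK126 and 3.07, 2.19 and 1.93 in siBcat. It fell in siBcat at -0.96 (adjusted p = 0.000869) and gave -0.22 (adjusted p = 0.357) in GSK126. Ecm2 fell in siBcat at -0.55 (adjusted p = 0.019) and in GSK126 at -0.63 (adjusted p = 0.0127). All 4 genes of that row were lower in siBcat, Ogn by the most, where 17.5% of all genes tested were lower. As Ecm2 and Omd were added with their values known, this count is a description only. On chromosome 10 Dcn and Lum are 47339 bases apart with no entry between, and both fell in siBcat, while in GSK126 Dcn fell and Lum was not called. Kera and Epyc, which follow on chromosome 10, and Optc, next to Prelp, had too few counts to be tested.

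**Figure D4:**
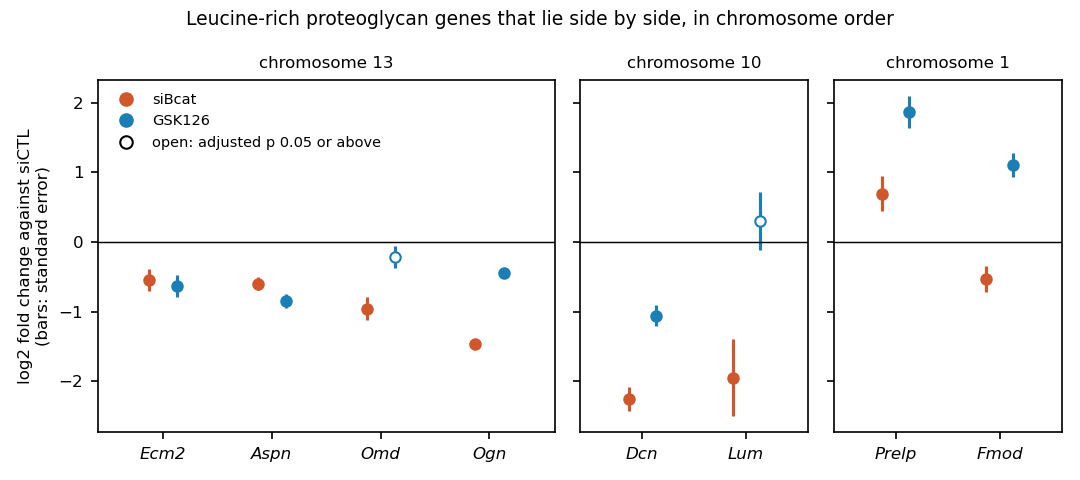
Log2 fold change against siCTL (y axis, bars are the standard error) of leucine-rich proteoglycan genes that adjoin on chromosomes 13, 10 and 1, in chromosome order, for siBcat (orange) and GSK126 (blue), open where the adjusted p was 0.05 or above. All 4 genes of chromosome 13 and both of chromosome 10 lie below 0 in siBcat, while Fmod and Prelp lie above 0 in GSK126 and on opposite sides of 0 in siBcat. Ecm2 and Omd were added after their values were seen.

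Large proteoglycans and nidogens belong to basement membranes and to hyaluronan-rich matrix. Of the 6 genes 1 rose and 1 fell in siBcat, with a median log2 difference of -0.081, and likewise in GSK126, with a median of -0.041. These shares of 33.3% stand near the 35.2% and 25% of all genes. Bcan (chr3:87987531-88000356), the gene of brevican, a hyaluronan-binding proteoglycan known from brain matrix, stood at 0.588, 0.970 and 0.637 CPM in the siCTL libraries, 1.73, 1.42 and 1.51 in GSK126 and 5.11, 4.49 and 4.95 in siBcat. The groups did not overlap, siBcat being highest and siCTL lowest. Bcan rose 6.61-fold in siBcat, a log2 fold change of 2.72 (SE 0.19, adjusted p = 3.62e-07), the greatest rise of the 43 genes, and 2.13-fold in GSK126, 1.09 (SE 0.20, adjusted p = 0.002). The treatments differed by 1.63 (SE 0.17, adjusted p = 7.71e-06). Its level stayed low, at 1.27 CPM per kilobase in siBcat. Vcan, the gene of versican, its widely expressed relative, gave -0.30 (adjusted p = 0.176) in siBcat and fell in GSK126 at -0.76 (adjusted p = 0.00774). The GSK126 libraries of Vcan were at 636, 666 and 394 CPM and the siCTL libraries at 942, 972 and 963, without overlap. Without GSK126 replicate 3 the siBcat value of Vcan was called (-0.30, adjusted p = 1.21e-08). Its direct difference, 0.46 (adjusted p = 0.0431), was lost in 8 of 21 alternatives, among them those without siCTL replicate 1, 2 or 3, siBcat replicate 1, 2 or 3 (adjusted p 0.0566 to 0.0822), and was 0.26 without GSK126 replicate 3.

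Nidogen-1, which links laminin to type IV collagen, was the highest of this group per kilobase. Nid1 (chr13:13437602-13512275) stood at 1578, 1595 and 1557 CPM in the siCTL libraries, 1383, 1427 and 973 in GSK126 and 1250, 1171 and 1232 in siBcat. Every treated library was below every siCTL library, and the treatments overlapped. Nid1 fell in siBcat at -0.37 (SE 0.12, adjusted p = 0.0304) and gave -0.32 (adjusted p = 0.0684) in GSK126. The siBcat call was lost in 7 of 21 alternatives, among them those without siCTL replicate 1, 2 or 3, siBcat replicate 1, 2 or 3 (adjusted p 0.0579 to 0.0952). In GSK126 the value passed in 8 of 21 alternatives. Among them were the DESeq2 Wald test (adjusted p = 0.0181), limma-voom (adjusted p = 0.0437) and removal of the length trend (adjusted p = 0.0411). It also passed without GSK126 replicate 2 (-0.43, adjusted p = 0.029) or without GSK126 replicate 3 (-0.17, adjusted p = 0.000486). Nid2 gave -0.18 (adjusted p = 0.123) in siBcat, 0.24 (adjusted p = 0.0558) in GSK126 and -0.42 (adjusted p = 0.00172) between the treatments. Without GSK126 replicate 3 Nid2 was called lower in siBcat (-0.18, adjusted p = 0.00144) and higher in GSK126 (0.34, adjusted p = 1.06e-05). In all, its siBcat value passed in 3 of 21 alternatives and its GSK126 value in 5 of 21. The heparan sulfate proteoglycans perlecan and agrin were not called in any comparison. Hspg2, the gene of perlecan, had 1496 ± 187 CPM in siCTL, 1495 ± 409.6 in GSK126 and 1515 ± 103 in siBcat. Agrn had 40.1 ± 4.19, 38.0 ± 3.12 and 40.6 ± 6.99 CPM.

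Crosslinking enzymes fix the fibres in place. Of the 7 genes 2 rose and 1 fell in siBcat, with a median log2 difference of -0.006, and 1 rose and 1 fell in GSK126, with a median of -0.15. At 42.9% and 28.6% these shares stand near the 35.2% and 25% of all genes. In siBcat Tgm2 changed most. Tgm2 (chr2:158116405-158146392), the gene of transglutaminase 2, which joins glutamine to lysine side chains of fibronectin and other proteins, stood at 53.3, 55.7 and 49.5 CPM in the siCTL libraries, 47.2, 47.0 and 42.1 in GSK126 and 15.7, 14.0 and 12.8 in siBcat. The siBcat libraries were far below the rest, and GSK126 was below siCTL without overlap. Tgm2 fell 3.73-fold in siBcat, a log2 fold change of -1.90 (SE 0.083, adjusted p = 5.55e-09), and gave -0.22 (adjusted p = 0.0572) in GSK126 and -1.68 (SE 0.083, adjusted p = 1.02e-08) between the treatments. The GSK126 value passed in 9 of 21 alternatives, among them the DESeq2 Wald test (adjusted p = 0.0322), limma-voom (adjusted p = 0.0447) and every count halved (adjusted p = 0.0497). Lox, the main lysyl oxidase of collagen and elastin and the highest of this group per kilobase, stood at 6012, 6416 and 6179 CPM in the siCTL libraries, 7722, 7979 and 6259 in GSK126 and 6140, 6294 and 6088 in siBcat. In siBcat its libraries overlapped siCTL (-0.0065, adjusted p = 0.958). The GSK126 value, 0.24 (adjusted p = 0.0401), passed the test, although replicate 3 lay within the siCTL range, and was lost in 10 of 21 alternatives, among them those without siCTL replicate 1, 2 or 3, GSK126 replicate 1 or 2, siBcat replicate 1, 2 or 3 (adjusted p 0.0701 to 0.149). Between the treatments it was -0.25 (adjusted p = 0.0229), which was lost in 6 of 21 alternatives, among them those without GSK126 replicate 1 or 2, siBcat replicate 1, 2 or 3 (adjusted p 0.0588 to 0.0946). Per kilobase, Lox over Tgm2 was 115.8 ± 6.24 in siCTL, 158 ± 10.8 in GSK126 and 432 ± 42.7 in siBcat (exact two-sided permutation p = 0.1 for each treatment).

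Loxl3 (chr6:83034224-83052564), a lysyl oxidase-like enzyme, stood at 331, 344 and 319 CPM in the siCTL libraries, 257, 253 and 246 in GSK126 and 523, 493 and 516 in siBcat. The groups were separate, siBcat highest and GSK126 lowest. Its log2 fold change was 0.63 (SE 0.049, adjusted p = 9.44e-07) in siBcat, -0.39 (SE 0.049, adjusted p = 9.38e-05) in GSK126 and 1.02 (SE 0.049, adjusted p = 9.61e-09) between the treatments. Loxl2 was at 5.43 ± 0.908 CPM in siCTL and 7.602 ± 1.33 in siBcat. It gave 0.48 (adjusted p = 0.0412) in siBcat, a call that was lost in 5 of 21 alternatives, among them those without siCTL replicate 2 or 3, siBcat replicate 1 or 3 (adjusted p 0.14 to 0.15). In GSK126 Loxl2 gave -0.46 (adjusted p = 0.075), and -0.62, adjusted p = 0.0222 without GSK126 replicate 2. Between the treatments it was 0.94 (adjusted p = 0.000815). Loxl1 gave 0.020 (adjusted p = 0.924) and -0.11 (adjusted p = 0.577), the latter -0.28, adjusted p = 0.0126 without siCTL replicate 3. Loxl4 gave -0.14 (adjusted p = 0.254) and -0.15 (adjusted p = 0.265), and its siBcat value was called without GSK126 replicate 3 (-0.14, adjusted p = 0.00769). Pcolce, which speeds removal of the C-propeptide of procollagen, gave -0.11 (adjusted p = 0.139) in siBcat and 0.10 (adjusted p = 0.202) in GSK126. Its direct difference of -0.20 (adjusted p = 0.00801) was lost without siBcat replicate 2 (adjusted p = 0.0512), and its siBcat value passed without GSK126 replicate 3 (-0.11, adjusted p = 0.0117). Per kilobase, Loxl3 over Lox went from 0.0475 ± 0.0015 in siCTL to 0.0737 ± 0.0034 in siBcat and 0.0310 ± 0.0036 in GSK126 (exact two-sided permutation p = 0.1 for each). The pairs whose ratios are given, 6 of 10 computed, were chosen after their values were seen.

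The direct comparison tests where the treatments differ. Sparcl1, Eln, Fbln1, Fmod, Smoc1 and Mfap5, lower in siBcat and higher in GSK126 than in siCTL, each also differed between siBcat and GSK126, by log2 values of -5.19, -4.18, -1.93, -1.65, -1.10 and -1.15. That of Sparcl1 was -5.82 without siBcat replicate 1 and -4.55 without siBcat replicate 2, and that of Eln was -5.42 without siBcat replicate 2. Loxl3 had the opposite arrangement. Among the genes lower than siCTL in both, the fall was greater in siBcat for Matn2, Dcn and Ogn, and greater in GSK126 for Tgfbi, while Thbs2, Ecm1, Efemp1 and Aspn gave no call between the treatments. The Thbs2 difference was -0.049 (adjusted p = 0.627), and -0.14, adjusted p = 0.00113 without GSK126 replicate 3. Among the genes higher in both, Bcan, Fbln2 and Efemp2 rose more in siBcat, Prelp more in GSK126, and Fbln5 and Postn gave no call between the treatments. Of the 8 small leucine-rich proteoglycan genes 5 were lower in siBcat than in GSK126 and 0 higher. Aspn came near a call as higher (0.25, adjusted p = 0.0554), with no overlap of libraries, and was called so in 5 of 21 alternatives. That share of 62.5% stands beside 41.2% of all genes, 19.3% higher and 21.9% lower. It was 76.9% in the matricellular group, 71.4% in the crosslinking group, 66.7% in the elastic group and 50% among large proteoglycans and nidogens.

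GSK126 replicate 3 stood apart in the long matrix genes. Within the GSK126 group, each library was set against the mean of the other 2 for the 32 matrix genes that reached 10 CPM. In replicate 3 the 11 genes of 5000 bases or longer had a median log2 difference of -0.44, down to -0.74, and the 21 shorter genes a median of -0.052. Replicates 1 and 2 lay mostly above 0 for the long genes, with medians of 0.20 each. Replicate 3 is part of the mean each was set against, so these values follow from its low level and are no separate observation. Across these 32 genes of the same libraries the difference in replicate 3 went with the logarithm of length at r = -0.83, a description only. Fn1, Vcan, Hspg2, Fbn1, Nid1 and Tnc deviated most. Over all genes tested, each library was set against the mean of its whole group, itself included, which gives smaller differences. On that measure the longest 10% of genes had a median of -0.23 in replicate 3 and the shortest 10% a median of 0.17. The matrix genes tested, of all lengths, had a median of -0.13 on it, and all genes -0.003. Without replicate 3, 35 matrix genes were called in siBcat, 12 higher and 23 lower, 28 in GSK126, 15 and 13, and 33 in the direct comparison, 13 and 20. The share of all genes called without it was also higher, 47.2%, 28.7% and 47.2% in the same order. Labels give no RNA integrity value per library, and its part in this pattern was not tested.

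**Figure D5:**
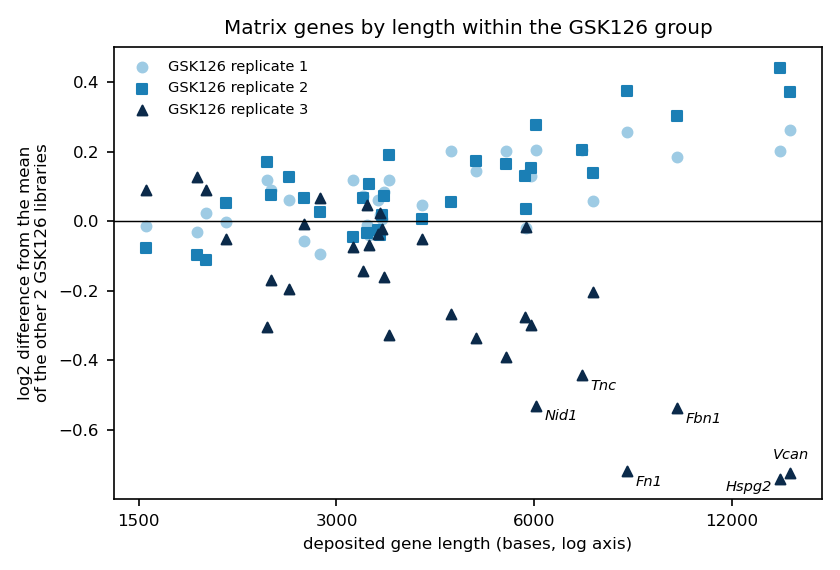
Log2 difference of each GSK126 library from the mean of the other 2 (y axis) against deposited gene length in bases (log x axis) for the 32 matrix genes that reached 10 CPM. Replicate 3 (dark triangles) falls to -0.74 for the long genes. Replicates 1 and 2 (circles and squares), each set against a mean that includes replicate 3, lie mostly above 0.

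Genes around the 46 were described with 3 further lists. Of 57 relatives in the same families 37 were tested, with 11 higher and 14 lower in siBcat (median log2 difference -0.22) and 6 higher and 9 lower in GSK126 (median 0.075). The 4 with the smallest adjusted p, in siBcat and GSK126 in turn, were Srpx2 at 0.31 (adjusted p = 0.000431) and -0.77 (adjusted p = 6.7e-07), Fbln7 at -1.75 (adjusted p = 9.22e-07) and 1.02 (adjusted p = 4.07e-05), Gpc1, the gene of glypican-1, at 0.78 (adjusted p = 9.3e-07) and 0.16 (adjusted p = 0.0657), and Ltbp2, a microfibril-binding protein, at -0.61 (adjusted p = 0.000103) and 1.06 (adjusted p = 1.74e-06). Fbln7 and Ltbp2 thus fell in siBcat and rose in GSK126, as Fbln1 did. Of 44 genes that build and sulfate glycosaminoglycan chains 42 were tested, with 12 higher and 8 lower in siBcat (median 0.066) and 4 higher and 10 lower in GSK126 (median -0.01). The synthases of the sulfate donor went opposite ways. Papss1 fell in both, at -0.82 (adjusted p = 7.35e-08) and -0.43 (adjusted p = 3.17e-05), and Papss2, named after its values were seen, rose in both, at 0.96 (adjusted p = 3.5e-06) and 0.77 (adjusted p = 4.53e-05). Has2, the gene of hyaluronan synthase 2, rose in both, from 4.15 ± 0.199 CPM to 15.1 ± 0.676 in siBcat and 8.08 ± 1.34 in GSK126, at 1.87 (adjusted p = 1.5e-07) and 0.96 (adjusted p = 9.73e-05). Glce, the epimerase of heparan sulfate, gave -0.97 (adjusted p = 9.56e-07) and 0.036 (adjusted p = 0.754), and Chst15, a chondroitin sulfotransferase, -0.82 (adjusted p = 1.29e-06) and -0.28 (adjusted p = 0.00901).

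Of 21 genes of collagen modification and processing 19 were tested, with 8 higher and 5 lower in siBcat (median 0.11) and 1 higher and 4 lower in GSK126 (median -0.049). Plod2, the lysyl hydroxylase that prepares telopeptides for crosslinks, gave -0.49 (adjusted p = 8.53e-06) and -0.14 (adjusted p = 0.0502) in siBcat and GSK126. Adamts14, a procollagen N-proteinase, fell in both, at -0.55 (adjusted p = 0.000523) and -0.91 (adjusted p = 1.86e-05). Plod3 gave 0.35 (adjusted p = 0.000261) and -0.020 (adjusted p = 0.814), and Plod1, the lysyl hydroxylase of the collagen helix, fell in both, at -0.32 (adjusted p = 0.00039) and -0.36 (adjusted p = 0.000286). The shares called in siBcat and GSK126 were 67.6% and 40.5% of the relatives, 47.6% and 33.3% of the glycosaminoglycan genes and 68.4% and 26.3% of the processing genes, beside 35.2% and 25% of all genes, whose medians were 0.0024 and 0.0063. Nothing was tested for a list as a whole.

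Some of the 46 genes share exons with other genes in GENCODE M21 (GRCm38), and whether counting used strand is not given in the sources used here, so reads there cannot be assigned with certainty. The share of exon bases overlapped was 21.8% for Tgm2 (Rprd1b and Gm20412), 20.1% for Fbn1 (Gm9913), 11.6% for Loxl3 (Htra2), 9.68% for Prelp (Gm15851, antisense), 8.45% for Nid2 (Rtraf) and 6.59% for Thbs3 (Mtx1). Rprd1b gave 0.026 (adjusted p = 0.771) and Htra2 0.14 (adjusted p = 0.138) in siBcat against siCTL, and neither was called in any comparison. In siBcat Tgm2 and Loxl3 gave -1.90 and 0.63. Of the bases that Tgm2 shares, 370 lie in Rprd1b and 633 in Gm20412. Gm20412, Gm9913, Gm15851 and Rtraf have no entry under these names and so no value here. The part of shared exons in the changes was not tested.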

How the data were processed

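Counts from 9 RNA sequencing libraries, 3 per group, were analysed. The submitters' processing notes name bcl2fastq, TopHat2 2.0.6, HTSeq and the mm10 build. Which settings and annotation were used is not given in the sources used here. Raw counts per gene, all of them even, make up the deposited table, with positions and lengths on mm10. Another 6 columns, of a combination treatment, and the ChIP-seq samples were not used here.

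The members and all gene lists were chosen with earlier results of these data known. Genes were filtered with filterByExpr (minimum count 10, minimum total 15), which left 13240 of 23358 entries, scaled by TMM and fitted by group over the 9 libraries with edgeR 4.0.16 (robust quasi-likelihood F-test, 6 residual degrees of freedom, R 4.3.3). Benjamini-Hochberg adjustment covered every gene tested in a comparison, and 0.05 was the threshold. The biological coefficient of variation was 8.12%. Standard errors are the absolute log2 fold change over the square root of F. Levels per kilobase use the deposited gene length, of which 37.8% are multiples of 3. The scripts were tested on simulated data. Values by library are given for each gene called with at least a 2-fold change in any comparison and for the highest gene per kilobase of each role group; at most 4 further genes of a group were chosen by smallest adjusted p, and the others are named to account for all 46. Motif searches used RefSeq promoter windows (GRCm38.p6), and exon overlaps used GENCODE M21. Alternatives used DESeq2 1.42.0 and limma 3.58.1. Ratios and figures used Python 3.11.15 with scipy 1.17.1 and matplotlib 3.10.9. Libraries of 1 group differed by more than sampling noise, so none was counted as a repeat of another. No pairing by replicate number was assumed.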

Additional observations from a re-analysis of the deposited data

How the results depend on the processing

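The number of matrix genes called stayed within 1.5 times its value of 30, 25 and 29 (siBcat against siCTL, GSK126 against siCTL, siBcat against GSK126) under other scalings, filters, length correction and tools. With a fold change of at least 2 also required it was 10, 6 and 16. When 1 library was left out it ranged from 22 to 35, from 21 to 28 and from 25 to 33. The share of all genes called then also varied, from 26.9 to 47.2%, from 17.4 to 28.7% and from 32.9 to 47.2%. In the full fit that share was 35.2%, 25% and 41.2%. A fit with the replicate number as a block called 28, 29 and 29 matrix genes. Same-numbered libraries did not deviate together (correlations from -0.031 to 0.069), and not every library correlated best with its own number. Over the alternatives in which they could be tested, 22 of the 30, 21 of the 25 and 24 of the 29 genes were called every time. Loxl4 between siBcat and GSK126 was 0.0036 in the full fit, not called, and ranged with 1 library left out from -0.11 (adjusted p = 0.0479, without GSK126 replicate 3) to 0.079. The cause was not tested. Low counts limit Eln, Lum, Sparcl1, Fbn2, Mfap2 and Mfap4, and the limit for a count of 0 covers counting error only.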

Other observations

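Summed CPM of the role groups gave a few values outside the comparisons above. The elastic fibre genes summed to 2284 to 2454 CPM in siCTL, 2144 to 2479 in GSK126 and 3151 to 3377 in siBcat, the siBcat libraries being above all others. That sum follows mostly Fbn1, at 727 CPM in siCTL and 1253 in siBcat, and Fbln2, at 528 and 951. Of the 9 elastic genes tested 5 were lower in siBcat. The fibronectin, tenascin, thrombospondin and matricellular genes other than Fn1 summed to 13940 to 14010 CPM in siCTL, 10180 to 12230 in GSK126 and 14250 to 15310 in siBcat, with GSK126 replicate 3 the lowest. The small leucine-rich proteoglycan genes, mostly Bgn, summed to 7533 to 7977 CPM in siCTL, 6729 to 7590 in GSK126 and 6435 to 6909 in siBcat. The crosslinking genes, mostly Lox, summed to 8317 to 8786 CPM in siCTL, 8582 to 10200 in GSK126 and 8425 to 8543 in siBcat.

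The other 4 ratios computed per kilobase of gene length each gave an exact two-sided permutation p of 0.1, the smallest for 3 against 3 libraries, for either treatment against siCTL. Smoc2 over Smoc1 was 6.49 ± 0.397 in siCTL, 3.81 ± 0.170 in GSK126 and 9.90 ± 0.856 in siBcat. Nid2 over Nid1 was 0.169 ± 0.0106, 0.252 ± 0.02004 and 0.194 ± 0.0025 in the same order. Tnc over Tnxb was 93.6 ± 7.70, 71.9 ± 10.2 and 694 ± 66.1. Loxl3 over Tgm2 was 5.50 ± 0.132, 4.87 ± 0.215 and 31.8 ± 3.16.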
